A study of Mus musculus with 6 samples.

Results

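The genes described here encode chaperones and disulfide isomerases of the endoplasmic reticulum (ER). They were Hspa5, Hsp90b1, Pdia3, Pdia4, Pdia6, P4hb, Calr, Canx, Dnajb9 and Sdf2l1, chosen by name as a functional family and found by gene symbol in the platform annotation. Of these 10, 9 were measured among 19505 genes in all. Each of the 9 had a single transcript cluster, the array's unit for a gene. No transcript cluster carried the symbol of Pdia4, so only its promoter was searched.

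Expression was measured in B16F10, a pigmented mouse melanoma cell line, with single-colour Affymetrix arrays read as log2 values. The medium was changed for 48 h to one with 40 µM or 2.5 µM of a compound, named di-sq in the sample labels and SQ-diEG in the title of the series, or to medium without it (control). There were 2 arrays per group, grouped here by title and treatment, although the description of 2.5 µM replicate 1 names medium and those of the other 3 treated arrays name another treatment. Nothing states that replicates were separate wells or cultures, and the p-values below measure only the spread between these arrays, which may be technical. As a check of the cell type, all 9 measured pigment cell markers (among them Mitf, Tyr, Pmel and Sox10) had mean levels above 9.94, which was the mean over arrays of the 95th percentile of negative control features. None of 21 markers of fibroblasts, keratinocytes, leukocytes or endothelium did.

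Proteins that enter the ER are unfolded, and the family described here folds them. Hspa5 and Hsp90b1 are heat shock type chaperones that hold folding chains, Dnajb9 and Sdf2l1 assist Hspa5, Calr and Canx bind the sugar trees of new glycoproteins, and the Pdia proteins and P4hb make and rearrange disulfide bonds. When unfolded protein builds up, the sensors of the unfolded protein response switch on genes of this family, in part through the ER stress response element (ERSE) that lies in many of their promoters and binds ATF6 together with NF-Y. In pigment cells the melanosomal enzyme tyrosinase is a glycoprotein that folds in the ER with the help of calnexin, the product of Canx.

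The ERSE was searched as the letters CCAAT and CCACG with 9 bases of any kind between them, on both strands of the RefSeq promoter windows (GRCm38.p6, 250 bases before to 50 after the annotated start of a gene). They were found in 5 of the 10 member windows and in 39 of 32851 windows in all (0.119%). The 5 windows with a match are shown because they carry the element, which is in capitals, and each runs 5′ to 3′ on the strand of its gene. They lie at chr2:34771840-34772139 (Hspa5, plus strand), chr10:86705395-86705694 (Hsp90b1, minus strand), chr12:17266339-17266638 (Pdia6, plus strand), chr8:84846882-84847181 (Calr, minus strand) and chr11:50325624-50325923 (Canx, minus strand).
Hspa5: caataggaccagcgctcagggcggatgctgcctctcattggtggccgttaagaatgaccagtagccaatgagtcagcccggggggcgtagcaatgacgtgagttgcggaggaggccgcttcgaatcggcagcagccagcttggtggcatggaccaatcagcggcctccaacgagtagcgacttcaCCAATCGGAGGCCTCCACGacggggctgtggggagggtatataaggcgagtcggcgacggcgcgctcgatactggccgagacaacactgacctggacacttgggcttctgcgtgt
Hsp90b1: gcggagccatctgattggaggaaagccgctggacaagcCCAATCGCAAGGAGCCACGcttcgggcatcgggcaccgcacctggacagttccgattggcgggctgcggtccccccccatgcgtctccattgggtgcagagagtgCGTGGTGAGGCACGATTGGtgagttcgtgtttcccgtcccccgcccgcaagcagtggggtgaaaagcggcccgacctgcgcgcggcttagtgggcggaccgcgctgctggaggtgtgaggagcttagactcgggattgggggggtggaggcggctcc
Pdia6: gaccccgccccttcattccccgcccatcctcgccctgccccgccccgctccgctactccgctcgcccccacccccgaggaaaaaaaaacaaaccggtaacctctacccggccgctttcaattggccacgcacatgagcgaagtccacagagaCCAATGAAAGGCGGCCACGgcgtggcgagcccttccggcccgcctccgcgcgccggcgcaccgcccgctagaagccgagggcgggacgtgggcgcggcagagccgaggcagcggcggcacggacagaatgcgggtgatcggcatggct
Calr: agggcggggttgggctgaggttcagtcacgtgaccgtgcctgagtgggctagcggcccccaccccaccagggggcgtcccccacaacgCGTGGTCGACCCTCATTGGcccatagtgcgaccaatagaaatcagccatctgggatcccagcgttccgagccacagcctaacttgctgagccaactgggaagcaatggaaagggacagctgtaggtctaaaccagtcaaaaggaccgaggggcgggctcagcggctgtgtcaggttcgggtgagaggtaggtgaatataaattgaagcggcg
Canx: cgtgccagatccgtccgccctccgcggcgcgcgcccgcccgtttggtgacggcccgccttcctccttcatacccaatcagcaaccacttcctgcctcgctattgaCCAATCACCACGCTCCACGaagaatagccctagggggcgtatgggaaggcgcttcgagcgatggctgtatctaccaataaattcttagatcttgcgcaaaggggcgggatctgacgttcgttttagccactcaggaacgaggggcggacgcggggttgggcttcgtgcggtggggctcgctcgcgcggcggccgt
Hsp90b1 had 2 matches, from -212 to -194 and, on the opposite strand, from -107 to -89, counted in bases from the annotated start. The other 4 windows had 1 match each, from -65 to -47 in Hspa5, from -98 to -80 in Pdia6, from -162 to -144 on the opposite strand in Calr and from -145 to -127 in Canx. The windows of Pdia3, Pdia4, P4hb, Dnajb9 and Sdf2l1 did not hold these letters. A second form of the element, ATTGG and CCACG with 1 base between them, was in none of the 10 windows and in 0.0365% of all windows. The letters TGACGTG of the element called UPRE, known as a binding site of XBP1, were in the Hspa5 window alone among the 10, from -157 to -151 and outside its ERSE, and in 2.01% of all windows. A match is a description of the letters and does not show that a factor was bound.

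**Figure D1:**
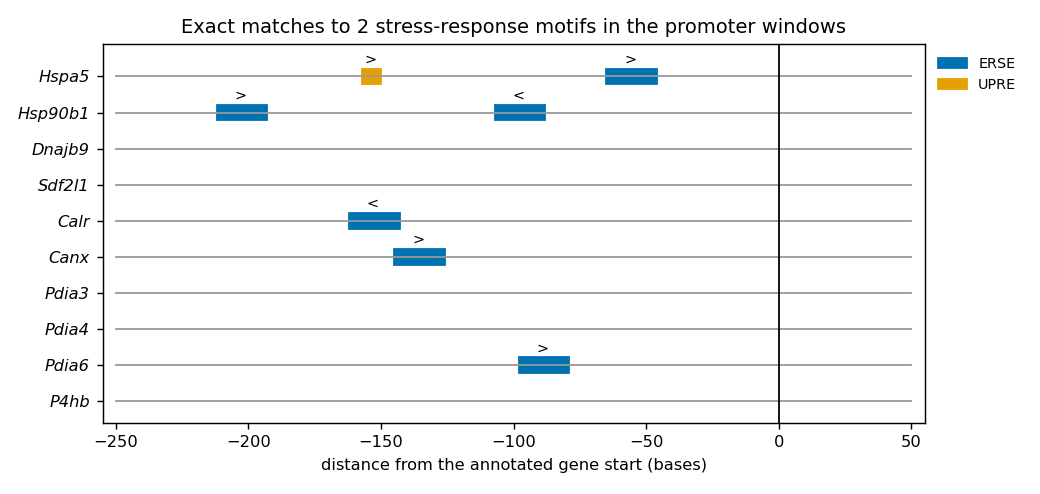
Positions of exact ERSE (blue) and UPRE (orange) matches in the promoter windows of the 10 genes. The horizontal axis is the distance from the annotated gene start in bases, grey lines are the searched windows, and > or < gives the strand of the match relative to the gene. The 6 ERSE matches lie in 5 windows, between -212 and -47.

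Facts of the arrays bear on all values that follow. Replicate 1 at 2.5 µM and replicate 1 at 40 µM had lower hybridisation controls, at 10.30 to 10.43, than the other 4 arrays, at 10.82 to 11.15, and lower poly-A controls. These 2 are called the low arrays here. They also had a wider spread of gene levels, with interquartile ranges of 5.20 to 5.43 against 4.90 to 4.94. All 9 measured members were higher on the low array than on its partner at both doses. This was so for 29.2% of all genes and for 40.5% of the 4147 genes whose mean level was above the negative controls. The median excess of the members on the low array on the log2 scale was 0.71 for the 40 µM pair and 0.18 for the 2.5 µM pair. The part of this array split in the differences below was not tested, so values are also given apart for the other arrays.

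At 40 µM against control, every measured member had a higher mean, as did 48.7% of all genes, with a median log2 difference of 1.10 over the 9, against -0.01 over all genes. In 8 of them both arrays at 40 µM lay above both control arrays, which held for 22.2% of all genes, and Canx was the exception. A log2 difference above 1, which is a doubling, was seen in 5 members and in 1.79% of all genes. No member and no other gene passed the adjusted threshold of 0.05 (limma with Benjamini-Hochberg adjustment over 19505 genes, 0.0% called). At an unadjusted p under 0.05, 8 members were higher and none lower, where 5.18% of all genes were higher and 6.86% lower. In such bulk RNA, a change in all cells and a change in a part of them cannot be told apart. Since the family was named with earlier results of these data known, these counts describe it and are no independent test.

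Among the heat shock type chaperones, Hspa5 (BiP, the ER member of the Hsp70 family) had log2 levels of 18.92 and 18.98 in control, 19.19 and 19.15 at 2.5 µM and 19.51 and 19.42 at 40 µM. The 3 groups did not overlap and stood in the order of dose. At 40 µM it was 1.43-fold higher than in control, a log2 difference of 0.52 with a 95% confidence interval from 0.21 to 0.83 (limma, adjusted p = 0.349). These levels are close to the highest values on the arrays, between 19.71 and 19.88, and saturation of the feature was not tested. Hsp90b1 (GRP94, the ER member of the Hsp90 family) lay at 16.23 on both control arrays, at 16.70 and 16.61 at 2.5 µM and at 18.06 and 17.00 at 40 µM. Its groups did not overlap either, and the 2 arrays at 40 µM differed from each other by 1.06, more than the 0.77 by which the lower of them exceeded the control mean. The log2 difference between 40 µM and control was 1.30 (interval 0.56 to 2.05, limma adjusted p = 0.342), or 2.47-fold.

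Both assistants of Hspa5 had 40 µM arrays above the other 4, at values near the background measure of 9.94. Dnajb9 (ERdj4), a J-domain protein that stimulates Hspa5 and helps pass misfolded proteins to degradation, had 10.32 and 10.28 in control, 10.70 and 10.38 at 2.5 µM and 11.55 and 10.85 at 40 µM. Its control arrays and 2.5 µM replicate 2 lay just over that measure, and 40 µM replicate 1 was the highest. Its log2 difference at 40 µM against control was 0.90 (interval 0.26 to 1.54, limma adjusted p = 0.349). Sdf2l1, a small ER protein that works with the J-domain protein Dnajb11, had 8.45 and 8.57 in control, 9.05 and 8.03 at 2.5 µM and 10.04 and 9.18 at 40 µM. It exceeded the 95th percentile of its array's negative controls only on 40 µM replicate 1, so its difference of 1.10 (interval 0.16 to 2.05, limma adjusted p = 0.379) is between values near background.

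Of the lectin chaperones, Calr had 40 µM arrays clear of the others and Canx did not, and the difference between these genes was not tested. Calr (calreticulin, the soluble form) had 18.05 and 17.97 in control, 18.03 and 17.87 at 2.5 µM and 18.83 and 18.50 at 40 µM. Only the 40 µM arrays stood apart, and the 2.5 µM and control arrays overlapped. The log2 difference at 40 µM against control was 0.66 (interval 0.26 to 1.05, limma adjusted p = 0.349). Canx (calnexin, the membrane-anchored form) had 15.79 and 15.75 in control, 15.83 and 15.65 at 2.5 µM and 16.17 and 15.77 at 40 µM. Its 40 µM replicate 2 lay between the control arrays, and the difference of 0.20 had an interval from -0.24 to 0.65 (limma adjusted p = 0.658).

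The disulfide isomerases held the member with the smallest p and those with the widest replicate spread at 40 µM. Pdia3 (ERp57, which works with calreticulin and calnexin on glycoproteins) had 15.13 and 15.08 in control, 15.48 and 15.40 at 2.5 µM and 16.45 and 16.16 at 40 µM. Its groups were in the order of dose without overlap. At 40 µM it was 2.30-fold higher than in control, a log2 difference of 1.20 with a standard error of 0.17 and an interval from 0.81 to 1.60. That placed it at rank 3 of all genes by p, with an adjusted p of 0.334 (limma). Pdia6 (P5, an isomerase that associates with Hspa5) had 13.40 and 13.44 in control, 13.88 and 13.54 at 2.5 µM and 15.57 and 14.33 at 40 µM, with no overlap between groups. Its log2 difference at 40 µM against control was 1.53 (interval 0.64 to 2.42, limma adjusted p = 0.349), or 2.89-fold, and its 2 arrays at 40 µM differed by 1.25. P4hb (PDI itself, also a subunit of collagen prolyl hydroxylase and of the microsomal lipid transfer protein) had 12.50 and 12.64 in control, 13.61 and 12.70 at 2.5 µM and 15.16 and 13.23 at 40 µM. Here the 2.5 µM and 40 µM arrays overlapped, and each low array was well above its partner, by 0.91 at 2.5 µM and 1.93 at 40 µM. P4hb had the largest log2 difference of the 9 at 40 µM against control, 1.63, with an interval from 0.24 to 3.01 (limma, adjusted p = 0.378).

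**Figure D2:**
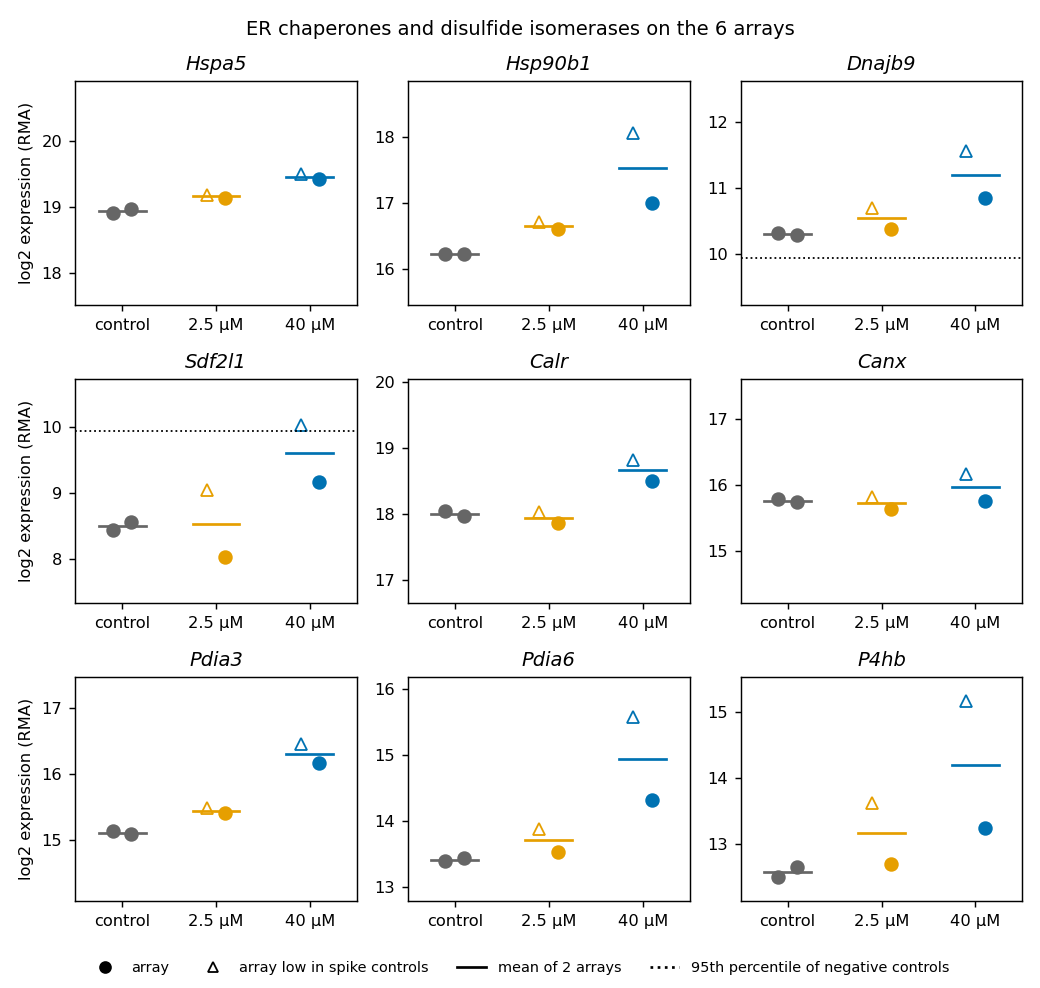
Log2 expression (RMA, vertical axis) of the 9 measured genes on each of the 6 arrays, by group (horizontal axis). Points are arrays, open triangles the 2 low arrays, bars the group means, and the dotted line the 95th percentile of the negative controls (9.94), with each panel spanning the same range of log2 units. At 40 µM both arrays lie above both control arrays for every gene but Canx, and the open triangle is the higher of the pair in each panel at each dose.

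How alike the arrays of a group were differed between the groups. The median standard deviation of the 9 members was 0.03 in control, 0.13 at 2.5 µM and 0.50 at 40 µM, against 0.09, 0.19 and 0.26 for all genes. Within the 40 µM group it ran from 0.06 for Hspa5 to 1.36 for P4hb.

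On 40 µM replicate 2 alone, which is not a low array, 8 of 9 members lay above both controls, where 40.7% of all genes did. The median difference from the control mean on that array was 0.66, with Pdia3 at 1.06, Pdia6 at 0.91, Hsp90b1 at 0.77, P4hb at 0.66 and Canx at 0.00. On 40 µM replicate 1 the median was 1.35, with P4hb at 2.59 and Pdia6 at 2.15. The size of the difference depended on which arrays were kept. Without 40 µM replicate 2 the median of the members was 1.35, and without 40 µM replicate 1 it was 0.66. Without both low arrays it was also 0.66, and without control replicate 1 or 2 it was 1.04 or 1.16. These fits leave 1 array in at least 1 group, so calls of members are not counted in them. With the low arrays as a block the median was 0.64, with P4hb at 0.92 and Sdf2l1 at 0.63. In that fit 8 members had an unadjusted p under 0.05 (limma), where 1393 of 19505 genes were higher and 1498 lower. No control array is low, so this block is 1 shift per gene, taken over both doses together.

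At 2.5 µM against control, 7 of 9 members had a higher mean, as did 51.2% of all genes, and none by a log2 difference above 1, as 0.441% of all genes did. The 7 were Hspa5, Hsp90b1, Pdia3, Pdia6, P4hb, Dnajb9 and Sdf2l1. Sdf2l1, at 0.03, was lower after quantile normalization (-0.094), with the low arrays as a block (-0.435), without both low arrays or 2.5 µM replicate 1 (-0.475) and without control replicate 1 (-0.028). The median log2 difference of the 9 was 0.24, against 0.01 over all genes. In 6 members both arrays at 2.5 µM lay above both controls, which held for 27.1% of all genes. No member had an unadjusted p under 0.05, where 4.24% of all genes were higher and 5.38% lower, and no gene passed the adjusted threshold (limma, 0.0% called). Pdia3 differed by 0.34 (interval -0.06 to 0.73), Hspa5 by 0.22 (-0.09 to 0.53) and Hsp90b1 by 0.43 (-0.32 to 1.17), and Pdia3 had the lowest adjusted p among the members, 0.561. These intervals include no difference, and for Hsp90b1 also a doubling. Calr and Canx differed by -0.06 (-0.45 to 0.33) and -0.03 (-0.47 to 0.42). The median was 0.12 without 2.5 µM replicate 1 and 0.40 without replicate 2. With the low arrays as a block it was -0.105, with Hspa5, Hsp90b1 and Pdia3 the 3 members still higher. That block takes 1 shift per gene from both doses, where the members' median excess on the low array was 0.71 at 40 µM and 0.18 at 2.5 µM. Without both low arrays the median at 2.5 µM against control was 0.121. On 2.5 µM replicate 2 alone 6 members lay above both controls, where 42.9% of all genes did, among them Hsp90b1 by 0.38, Pdia3 by 0.30 and Hspa5 by 0.20 over the control mean.

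**Figure D3:**
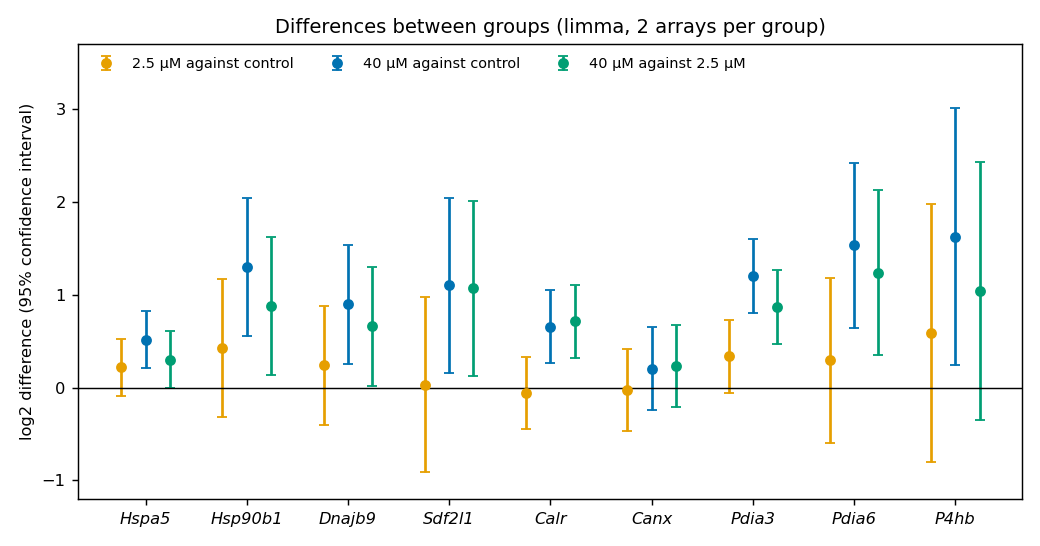
Log2 differences (vertical axis, points) with 95% confidence intervals (bars) from limma for the 9 genes in the 3 comparisons. At 40 µM against control the interval lies above 0 for all but Canx, and at 2.5 µM against control each interval includes 0.

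The comparison of 40 µM with 2.5 µM shares its 40 µM arrays with the first comparison and its 2.5 µM arrays with the second. All 9 members had the higher mean at 40 µM, as did 49.6% of all genes, with a median log2 difference of 0.87 against 0.00 over all genes. In 7 members both arrays at 40 µM lay above both at 2.5 µM, which held for 12.4% of all genes, with P4hb and Canx overlapping. At an unadjusted p under 0.05, 6 members were higher, where 2.34% of all genes were higher and 3.28% lower. A log2 difference above 1 was seen in Pdia6, P4hb and Sdf2l1 and in 0.302% of all genes. None passed the adjusted threshold (limma, 0.0% called). Pdia3 differed by 0.87 (interval 0.47 to 1.26), Calr by 0.71 (0.32 to 1.11), Pdia6 by 1.24 (0.35 to 2.13) and Hsp90b1 by 0.88 (0.13 to 1.62), each with a limma adjusted p of 0.854. Both 40 µM arrays lay above the other 4 arrays in 7 members, against 6.17% of all genes. Group means stood in the order of dose in 7 members, all but Calr and Canx, against 21.1% of all genes.

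Since each dose had 1 low array and 1 other, the doses could be compared within both kinds. The arrays of a pair were not alike, however. Hybridisation controls at 40 µM and 2.5 µM were 10.30 and 10.43 in the low pair and 11.15 and 10.82 in the other. Interquartile ranges of gene levels were 5.43 and 5.20 in the low pair and 4.94 on both arrays of the other. The part of this in the differences was not tested. Between the 2 low arrays all 9 members were higher at 40 µM than at 2.5 µM, with a median of 0.97 and a range from 0.32 for Hspa5 to 1.69 for Pdia6. Between the other 2 arrays all 9 were higher too, with a median of 0.53 and a range from 0.12 for Canx to 1.15 for Sdf2l1. Being higher at 40 µM in both pairs held for 24.6% of all genes. In the low pair and the other pair, Hspa5 differed by 0.32 and 0.28, Sdf2l1 by 0.99 and 1.15, Calr by 0.80 and 0.63 and Pdia3 by 0.97 and 0.76. Without 40 µM replicate 1 the median difference between the doses was 0.35.

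**Figure D4:**
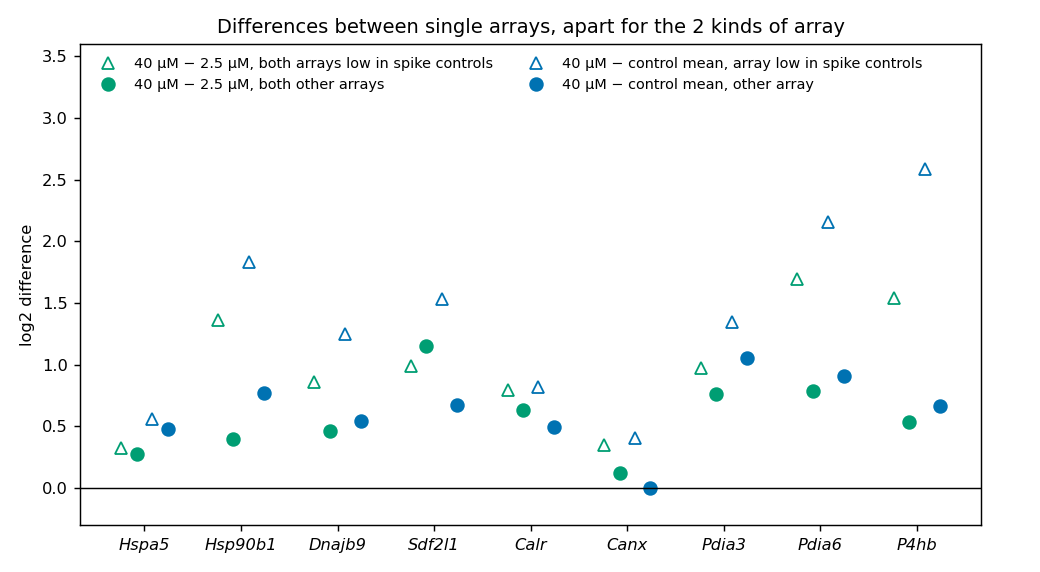
Log2 differences between single arrays (vertical axis) for the 9 genes, with open triangles for the low arrays and filled circles for the others, as 40 µM minus 2.5 µM (green) and 40 µM minus the control mean (blue). No point lies below 0, and the lowest is Canx on the 40 µM array outside the low pair, at 0.00.

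Other genes of ER folding were taken from 8 lists, of which 67 of 70 entries were measured. At 40 µM against control, 53 of the 67 had a higher mean, with a median log2 difference of 0.23, against 48.7% and -0.01 over all genes. At an unadjusted p under 0.05, 13 were higher and none lower, where 5.18% of all genes were higher and 6.86% lower. None passed the adjusted threshold (limma, smallest adjusted p = 0.339). The lists differed among themselves. Prolyl isomerases of the ER, which turn proline bonds in folding chains, had 6 of 6 measured members higher and a median of 1.14, with 2 of the 6 above the negative controls. Receptors that return ER proteins bearing KDEL-type tails from the Golgi had 3 of 3 higher and a median of 0.72, which is the value of Kdelr3, the 1 of them below the negative controls. Both were higher on the low array at 40 µM, with medians of 1.85 and 1.08 on 40 µM replicate 1 against 0.24 and 0.37 on replicate 2.

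Ppib (cyclophilin B, an abundant ER prolyl isomerase) had 10.79 and 10.89 in control, 12.28 and 11.42 at 2.5 µM and 12.72 and 11.49 at 40 µM. Its log2 difference at 40 µM against control was 1.26, with 0.44 as standard error (limma, adjusted p = 0.368), and both doses lay above control. Fkbp11 and Fkbp14, of the same list, differed by 1.71 and 1.02, with means below 9.94 in all groups. Kdelr2, Kdelr1 and Kdelr3, the 3 receptors, differed by 1.01, 0.59 and 0.72. For Kdelr2 the 2.5 µM arrays, at 14.12 and 13.32, overlapped those at 40 µM, at 14.16 and 13.57, above controls at 12.81 and 12.90.

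Among cochaperones and exchange factors of Hspa5, 9 of 10 were higher with a median of 0.45. Dnajb11 (ERdj3), the J-domain partner of Sdf2l1, had 9.32 and 9.57 in control, 10.16 and 9.55 at 2.5 µM and 11.22 and 10.42 at 40 µM, a log2 difference at 40 µM against control of 1.37 with a standard error of 0.33 (limma, adjusted p = 0.339). Both 40 µM arrays were above the other 4, as they were for Sdf2l1. Creld2, an ER stress inducible protein whose mean level was below the negative controls, differed by 1.87 (standard error 0.51), and Dnajc3, an ER J-domain protein, by 0.52 (standard error 0.24). Other isomerases and oxidases had 13 of 16 members higher and a median of 0.50, led by p by Pdia5 (0.86), the oxidase Ero1b (0.62) and the oxidase Qsox1 (0.51), whose means were all below 9.94.

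The remaining lists lay closer to all genes. Glycoprotein trimming and its folding sensors had a median of 0.15 with 10 of 13 higher, led by p by Clgn (0.78), Edem1 (0.37) and Uggt2 (-0.50), of which Clgn and Uggt2 were below the negative controls. ER-associated degradation had a median of 0.10 with 7 of 9 higher, where Selenos, below the negative controls, differed by 1.14, and Derl1 and Derl2 by 0.49 and 0.50. Among the partners of P4hb, P4ha1 and P4ha2, catalytic subunits of prolyl hydroxylases, differed by 0.32 and 0.01. P4ha3, of the same kind, and Mttp, the lipid transfer subunit, differed by -0.53 and -0.13 at levels below the negative controls. Among sensors and factors of the unfolded protein response the median was 0.04, with 3 of 6 higher. Xbp1, a transcription factor of this response, differed by 0.54 (standard error 0.22), Atf4 by 0.20 (0.14) and the sensor kinase Eif2ak3 (PERK) by -0.18 (0.20) (limma, adjusted p of 0.409, 0.574 and 0.723).

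**Figure D5:**
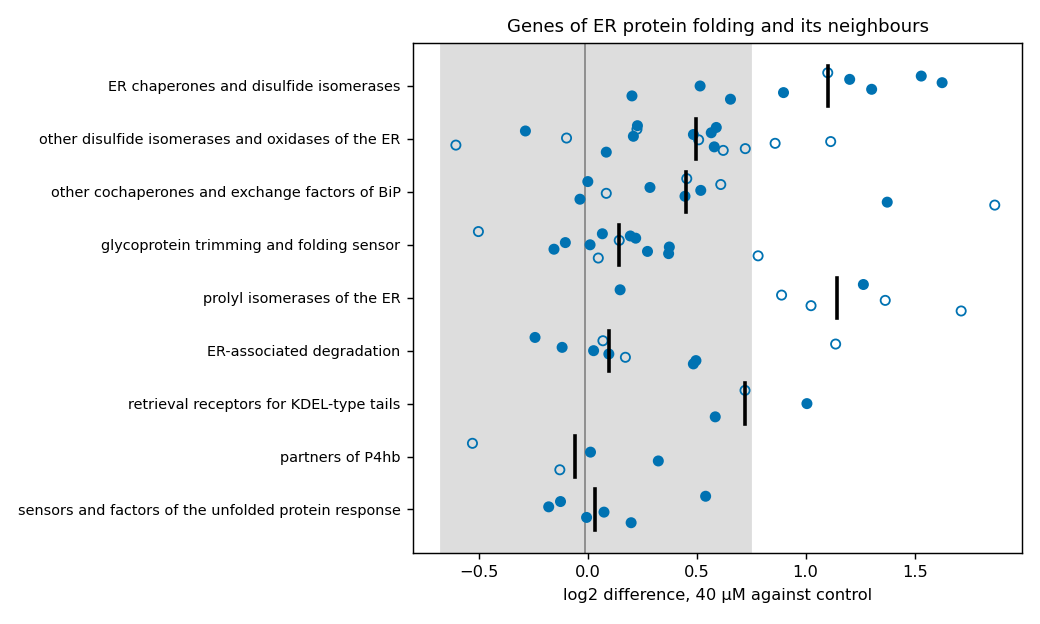
Log2 difference at 40 µM against control (horizontal axis) of each measured gene in the family and in 8 related lists (rows). Filled points have a mean level above the negative controls, open points below, black bars are list medians, the grey band spans the 5th to 95th percentile of all genes (-0.67 to 0.75) and the grey line their median. Right of the band lie 6 of the 9 family members and 5 of the 6 prolyl isomerases.

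Genes with a pattern like that of the family were ranked by Pearson's r with the mean of the 9 members over the 6 arrays, among 4139 other genes above the negative controls. The 5 highest were Cited1 (r = 0.994), a transcriptional coregulator, Scpep1 (0.993), a serine carboxypeptidase, Cast (0.992), the calpain inhibitor calpastatin, Slc3a2 (0.991), the heavy chain of amino acid transporters, and Gstp2 (0.986), a glutathione transferase. Cited1 had 9.39 and 9.64 in control, 10.42 and 9.81 at 2.5 µM and 12.12 and 10.81 at 40 µM. The other 4 differed by 0.30 to 0.76 between 40 µM and control. The 6 points share the array split, since the members averaged 15.71 on the low array at 40 µM and 14.94 on its partner, and 63 of the 4139 genes had an r above 0.95.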

How the data were processed

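Log2 expression values of 28846 features on 6 arrays were used as deposited. Per the submitters' processing notes, the authors made these log2 values with RMA in Affymetrix Expression Console, with Transcriptome Analysis Console also named, without versions or settings. RMA corrects background, makes array distributions alike and sums up the probe set, so the values say nothing of total RNA per array. The deposited distributions still differed, with interquartile ranges of gene levels from 4.90 to 5.43 over the arrays. Values reached 19.88, above the range of a 16-bit image, and the sources used here do not give the step behind this, so folds are on the deposited scale. Per the labels, biotin-marked cRNA was hybridised. Groups and replicate numbers follow the sample titles and treatment fields. The genome build is not given in the sources used here.

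The platform annotation gave 19572 of 22206 transcript clusters a single symbol, none several and 2634 none. Where a gene had several clusters, that of highest mean level was taken, giving 19505 genes, all of them tested. All comparisons came from 1 limma fit (3.58.1, R 4.3.3) of 3 group means with a mean-variance trend, 3 residual and 4.11 prior degrees of freedom, two-sided tests and Benjamini-Hochberg adjustment over all genes at 0.05. The method was tried on simulated data with independent noise, no array split and changes larger than any member difference in the reported fits. That trial does not cover calls at the sizes seen here. No column of another series was present. Arrays give no read depth, and their number limits the precision.

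Members, lists and alternatives were chosen with earlier results of these data known. Text names all members, the 3 genes of each related list with the smallest p at 40 µM against control (all genes in lists of 4 or fewer), and the 5 genes most like the members. Of the other genes with the ERSE letters, some are named too. They were picked by smallest p, level above the negative controls, place in a related list or likeness of name. Counts of overlap with arrays left out were added after seeing the data. Promoter windows and their coordinates are those of RefSeq on GRCm38.p6, matched by symbol for all 10 members. The alternatives were other normalizations, filters, variance models, array weights, blocks and arrays left out.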

Additional observations from a re-analysis of the deposited data

How the results depend on the processing

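The 3 comparisons were repeated under 17 alternatives. At 40 µM against control and at 40 µM against 2.5 µM all tested members kept the higher mean in each of them. Sizes changed at 40 µM against control. After quantile normalization the members' median was 0.925 and Hspa5 was at 0.34 (limma, unadjusted p = 0.0785). At an unadjusted p under 0.05 there were then 7 members, where 1132 of 19505 genes were higher and 1293 lower. Among genes above the negative controls there were 6 of 8 members, where 203 of 4147 genes were higher and 239 lower. The number of genes past the threshold was 0 in the reported fits. It came to 3749 at 40 µM against control, 3991 at 2.5 µM against control and 2965 at 40 µM against 2.5 µM without both low arrays, where only the 2 control arrays give an error. With arrays left out singly it ranged from 0 to 2235 at 40 µM against control and was 0 in the other comparisons. With the low arrays as a block it was 1 at 40 µM against 2.5 µM. The adjusted p of Pdia3 at 40 µM against control ranged from 0.000416 to 0.99 over the alternatives.

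The replicate numbers are not stated to mark a shared culture or day. Deviations of same-numbered arrays correlated at 0.386 between 40 µM and 2.5 µM, which both have the low array as number 1, and at -0.012 and -0.005 with control. Among genes above the negative controls, as 8 of the 9 members are, the same correlations were 0.651, 0.013 and 0.024. With the replicate block 0 genes passed in each comparison, the smallest adjusted p being 0.0665, and the members' medians were 1.10, 0.24 and 0.87 as in the reported fits. Number 1 cannot be told apart from the array split at the 2 doses.

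The median of the members at 40 µM against control ranged from 0.66 to 1.35 with arrays left out singly, that at 2.5 µM against control from 0.12 to 0.40, and that at 40 µM against 2.5 µM from 0.35 to 1.01. The number of members above without overlap can only stay or rise when an array is left out, so it does not measure dependence on single arrays. On 40 µM replicate 2 alone, 40.7% of all genes lay above both controls, against 22.2% with both 40 µM arrays. With the low arrays as a block the median at 40 µM against control was 0.64 and that at 2.5 µM against control turned to -0.105. At 2.5 µM, Pdia6 was then at -0.105, P4hb at -0.122, Dnajb9 at -0.018 and Sdf2l1 at -0.435. The block is 1 shift per gene taken over both doses, as no control array is low. Without both low arrays, Pdia6, P4hb and Dnajb9 were at 0.121, 0.131 and 0.08 at 2.5 µM against control. Sdf2l1 at this dose was also lower after quantile normalization (-0.094), when both low arrays were dropped (-0.475) and, with single arrays left out, ranged from -0.475 to 0.539. It was -0.028 without control replicate 1. Calr ranged from -0.139 to 0.021 and Canx from -0.118 to 0.062 in the same way, both above 0 without 2.5 µM replicate 2. Why the 2 arrays of a dose differed was not tested. Signal over background limits Sdf2l1, which was left out when only genes above the negative controls were kept.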

Other observations

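Outside the family, 32 genes had the ERSE letters in a promoter window, and 23 of them were measured. Among the 23 were Creld2, Ero1b, Dnajc3, Derl3 and Syvn1, which also belong to the related lists above, so the 2 sets of counts overlap. At 40 µM against control 16 of the 23 had a higher mean, with a median log2 difference of 0.33, against 48.7% and -0.01 over all genes. At an unadjusted p under 0.05, 6 were higher and 1 was lower, where 5.18% of all genes were higher and 6.86% lower, and none passed the adjusted threshold (limma). The 3 with the smallest p, named after their values were seen, were Xlr3a, Creld2 and Alg12, a mannosyltransferase that builds the glycan precursor in the ER. Alg12 had 8.62 and 7.99 at 40 µM and 7.19 and 7.17 in control, all below the background measure of 9.94. Xlr3a had 12.08 and 11.75 at 40 µM and 11.16 and 11.11 in control, a log2 difference of 0.78 with a standard error of 0.20. Xlr3b and Xlr3c, at levels below the negative controls, differed by 0.33 (standard error 0.41) and 0.57 (0.35). These Xlr3 genes, and likewise Esp15, Esp16, Esp18 and Esp36, were counted as separate genes among the 23. Only 3 of the 23 had a mean level above the negative controls (Xlr3a, Dnajc3 and Pan2), so most of these values are near background. At 2.5 µM against control 13 of the 23 were higher, with a median of 0.11.

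Within the family, the 5 measured members with the element had a median log2 difference of 0.66 at 40 µM against control and the 4 measured members without it had 1.15. These 2 medians were not compared by a test, and probes of different genes need not respond alike.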
